A study of Mus musculus musculus x M. m. domesticus and Mus musculus musculus x Mus musculus castaneus and Mus musculus domesticus with 42 samples.

Results

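The genes described are 9 transcripts that respond to glucocorticoids, to metals or to cellular stress: Fkbp5, Tsc22d3, Sgk1, Mt1, Mt2, Cdkn1a, Ddit4, Tat and Pck1. Every probe set of the array whose gene symbol is or includes one of these names was taken, which gave 18 of 45037 probe sets and 9 of 18193 named genes. None of the 18 carried a second symbol. Microarrays read these transcripts in 14 male house mice, each of which gave a brain, a liver and a testis sample (42 arrays). The males came from wild-derived inbred lines of Mus musculus musculus (47 days old), M. m. domesticus (45 days) and M. m. castaneus (47 days), and from 4 reciprocal F1 hybrids written mother first: musculus x domesticus (53 days), domesticus x musculus (50 days), musculus x castaneus (53 days) and castaneus x musculus (54 days). Each genotype has 2 males, called male 1 and male 2 after the labels. The series asks how the F1 express transcripts that do or do not differ between their parents. Each genotype stands for 1 inbred line or 1 cross sampled at 1 age, so age and genotype cannot be told apart in any comparison except castaneus with musculus. The sources used here give no time of day, feeding state or handling of the males.

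Glucocorticoids are adrenal steroids that bind the glucocorticoid receptor, which enters the nucleus and switches on target genes in most tissues, with a daily rhythm and after stress. Fkbp5 encodes a co-chaperone of the receptor that lowers its affinity for hormone, Tsc22d3 (also called Gilz) an anti-inflammatory leucine zipper protein, and Sgk1 a serine/threonine kinase that regulates ion channels. Mt1 and Mt2 encode metallothioneins, small cysteine-rich proteins that bind zinc and copper and are induced by metals through the factor MTF1 as well as by glucocorticoids. Cdkn1a encodes the cell cycle inhibitor p21, Ddit4 (also called Redd1) an inhibitor of mTORC1, and both are also targets of p53 or of cellular stress. Tat (tyrosine aminotransferase) and Pck1 (the cytosolic PEP carboxykinase of gluconeogenesis) are liver enzymes whose transcription rises with glucocorticoids and fasting.

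The values are MAS5 signals, a linear brightness per probe set. The 2 males of a genotype correlated at r = 0.968 to 0.981 over all probe sets in brain, 0.958 to 0.968 in liver and 0.974 to 0.979 in testis. Differences are on the scale log2(signal + 31), where a difference of 1 is a doubling for bright transcripts. For dim ones it stands for more than a doubling of the signal. A probe set is called where limma's adjusted p is under 0.05. The number of arrays limits the precision. Probe sets of low mean signal in a tissue were not tested, which left 11 of the 18 in brain (7 genes), 15 in liver (all 9 genes) and 12 in testis (8 genes). Unless another is named, values are those of the brightest probe set of a gene. The tissue markers matched the labels: the summed signal of 5 liver markers was 110523 to 169278 in liver against at most 779 in brain and 3031 in testis. The liver of musculus x castaneus male 2 stood apart: its 4 measured exocrine pancreas markers summed to 34337, against 312 to 3230 in the 13 other livers and 470 in the brain of the same male.

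Tissue set the main order of levels for most of the genes. Tat was read at 11775, 16235 and 20212 in liver (lowest, median and highest of 14 arrays), at 20, 58.5 and 178 in brain and at 37, 96.5 and 158 in testis. Pck1 was read at 5685, 13575.5 and 20995 in liver, at 1, 2.5 and 7 in brain and at 1, 9 and 69 in testis. The liver arrays of both enzymes lay far above every array of the other tissues. Neither enzyme passed the filter in all tissues. Without the filter, liver exceeded brain by 7.38 ± 0.14 (log2, SE) for Tat and 8.51 ± 0.12 for Pck1, with adjusted p of 2.65e-27 and 5.36e-31. Cells of a type in smaller number and less RNA per cell cannot be told apart in such whole-tissue samples.

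Tsc22d3 was highest in liver (3216, 5272.5 and 10080), lower in brain (1376, 2075 and 2984) and lowest in testis (312, 411.5 and 907). By this brightest probe set no pair of tissues overlapped. All 3 tissue differences of Tsc22d3 were called: 1.21 ± 0.11 for liver minus brain (adjusted p = 1.24e-11), -2.14 ± 0.11 for testis minus brain (adjusted p = 1.24e-17) and -3.35 ± 0.11 for testis minus liver (adjusted p = 1.34e-22). The other Tsc22d3 probe sets tested in every tissue gave the same order, with testis minus liver of -2.44 ± 0.095 and -1.21 ± 0.080. In the former, liver (1449 to 3769) and brain (877 to 1780) overlapped. In the latter, brain (335 to 459) and testis (185 to 478) overlapped. Sgk1 had another order, brain first (1806, 2760 and 5078), then liver (845, 1338 and 3740), then testis (209, 298 and 808). Testis lay below every other array of Sgk1, while brain and liver overlapped. Testis minus brain was -2.94 ± 0.12 for Sgk1 (adjusted p = 1.56e-19) and liver minus brain was -0.95 ± 0.12 (adjusted p = 3.45e-08).

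Fkbp5 had medians of 984 in brain, 1135 in liver and 1174.5 in testis, with the widest range in liver, 763 to 4380. Liver minus brain was 0.42 ± 0.086 (adjusted p = 5.05e-05), and testis minus brain was not called (0.15 ± 0.086, adjusted p = 0.0957). Testis minus liver was -0.27 ± 0.086 (adjusted p = 0.00495) by this probe set, while the second tested probe set of Fkbp5 gave the opposite sign, 0.80 ± 0.12 (adjusted p = 5.48e-07). The second probe set also called testis above brain, by 1.14 ± 0.12 (adjusted p = 7.56e-10). So the place of testis in the order of tissues for Fkbp5 depends on the probe set. With each male as a fixed block, testis minus liver was no longer called for the first (adjusted p = 0.0742).

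The metallothioneins were brightest in testis. Mt1 ranged from 9714 to 17393 in testis (median 13124), from 4718 to 10499 in brain (median 8144.5) and from 440 to 25218 in liver (median 1946). Mt2 ranged from 7124 to 10705 in testis (median 8365.5), from 3461 to 8107 in brain (median 5222.5) and from 647 to 25687 in liver (median 3161). The liver range enclosed those of both other tissues. Averaged over genotypes, liver was nevertheless below brain, by a log2 difference of -1.57 ± 0.20 for Mt1 (adjusted p = 2.95e-08) and -0.57 ± 0.21 for Mt2 (adjusted p = 0.0153). Testis exceeded brain by 0.78 ± 0.20 for Mt1 (adjusted p = 0.000766) and 0.59 ± 0.21 for Mt2 (adjusted p = 0.0126). With each male as a fixed block, both Mt2 differences from brain lost their call (adjusted p = 0.102 for liver and 0.0909 for testis).

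By their brightest probe sets the growth and stress inhibitors were highest in brain. Cdkn1a had medians of 612.5 in brain, 338 in testis and 292 in liver, and Ddit4 medians of 1862, 869.5 and 1013.5. The second probe set of Cdkn1a, not tested in liver, did not place brain above testis, with medians of 234 and 256. Liver minus brain was -0.99 ± 0.14 for Cdkn1a (adjusted p = 1.5e-07) and -1.07 ± 0.19 for Ddit4 (adjusted p = 8.29e-06), and testis minus brain was -0.78 ± 0.14 (adjusted p = 7.47e-06) and -0.93 ± 0.19 (adjusted p = 5.6e-05). Liver and testis did not differ beyond their spread for either gene (testis minus liver 0.21 ± 0.14, adjusted p = 0.149, for Cdkn1a and 0.14 ± 0.19, adjusted p = 0.489, for Ddit4). In all, 10 of the 10 probe sets tested in every tissue were called for liver minus brain, 9 for testis minus brain and 8 for testis minus liver. Over all probe sets the called shares were 84.1%, 85.6% and 85.9%, so differing between tissues is the rule on this array.

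**Figure D1:**
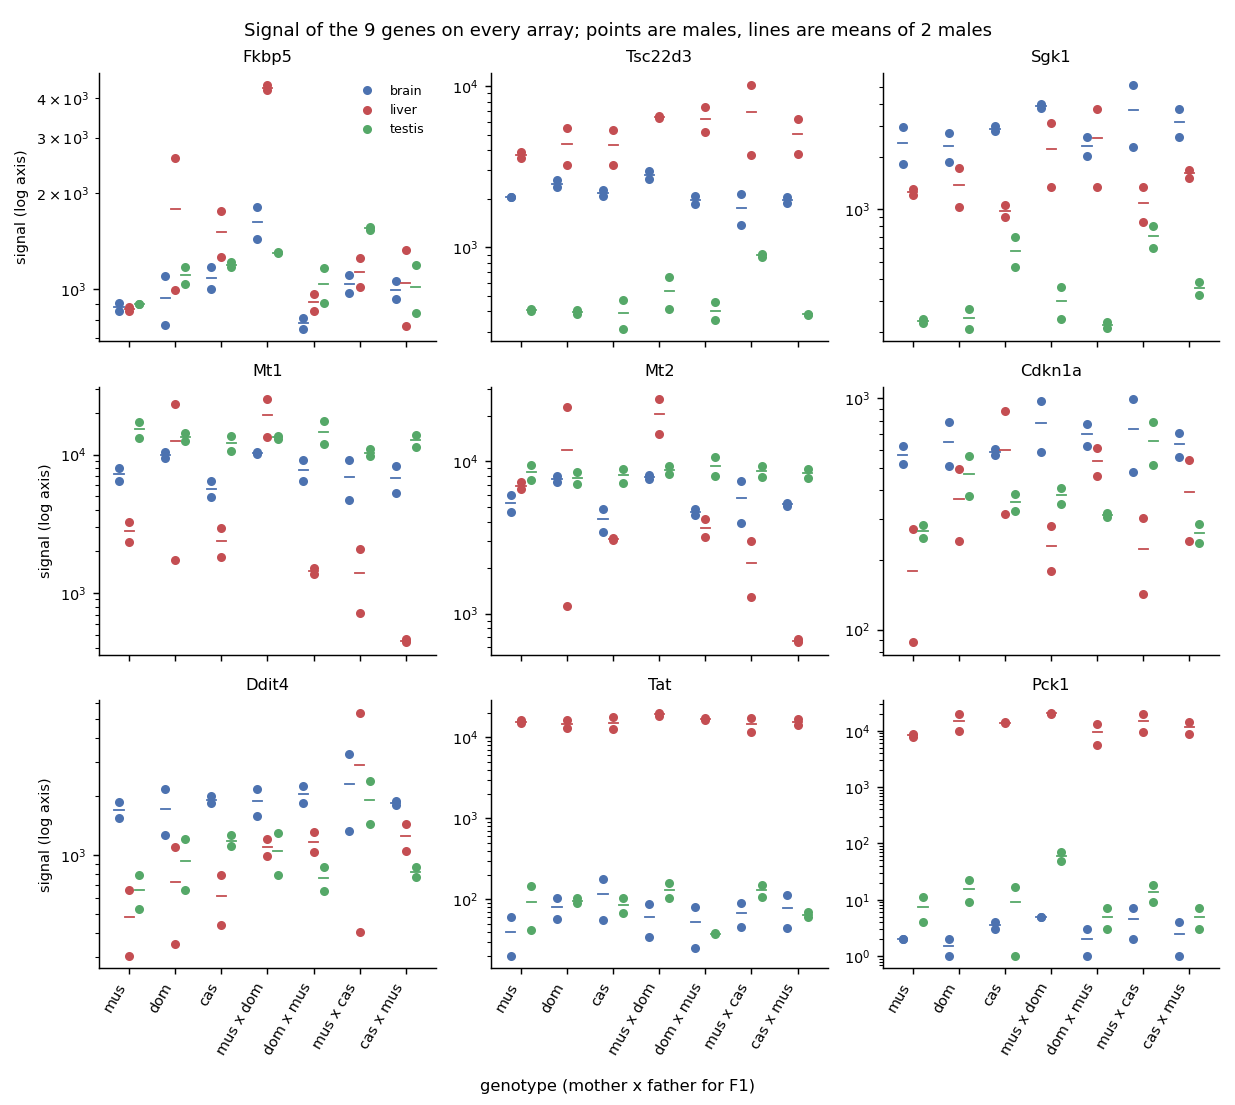
Signal of the 9 genes on every array, on a log axis, by genotype (mother x father for F1) and coloured by tissue; points are males and short lines the means of 2 males. Liver Mt1 and Mt2 span 440 to 25218 and 647 to 25687, while their testis signals stay within 9714 to 17393 and 7124 to 10705.

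The 2 males of one genotype differed more in liver than in brain or testis for most of the genes. The residual SD of log2 signal within genotypes was 1.22 for Mt2, 1.13 for Ddit4 and 1.12 for Mt1 in liver, against a median of 0.293 over all 27022 probe sets tested there. That median was itself lower in brain (0.218) and testis (0.22). These values lay at the 99.7th, 99.6th and 99.6th percentile. Cdkn1a (0.716) lay at the 96.3th percentile, Sgk1 (0.568) at the 90.3th, Pck1 (0.545) at the 88.9th, Tsc22d3 (0.532) at the 88th and Fkbp5 (0.447) at the 79.8th. Tat went the other way, with 0.231 in liver, at the 31.7th, and 0.403 in testis, at the 89.3th. In testis the same Mt1 and Mt2 probe sets lay at the 53.6th and 43.1th percentile, with SDs of 0.229 and 0.202, and in brain at the 84th and 73.6th, with SDs of 0.363 and 0.299. These are descriptions with no test.

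The liver values of Mt1 show which males stand out. Musculus males 1 and 2 had Mt1 signals of 2342 and 3239, domesticus 23137 and 1742, castaneus 1822 and 2947. The F1 had 25218 and 13351 in musculus x domesticus, 1366 and 1524 in domesticus x musculus, 716 and 2070 in musculus x castaneus, and 440 and 464 in castaneus x musculus. So 3 livers, domesticus male 1 and both musculus x domesticus males, lay at 13351 or above, and the other 11 at 3239 or below.

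Mt2 singled out the same 3 livers. Its signals were 6593 and 7285 in musculus, 22781 and 1130 in domesticus, 3150 and 3051 in castaneus, 25687 and 15157 in musculus x domesticus, 3172 and 4186 in domesticus x musculus, 1283 and 2992 in musculus x castaneus, and 679 and 647 in castaneus x musculus. Domesticus male 1 exceeded male 2 by 13.07-fold for Mt1 and 19.65-fold for Mt2 on the offset scale. The dim second probe set of Mt1 read 1558 in domesticus male 1 and 42 in male 2, and 229 and 93 in the musculus x domesticus males. The castaneus x musculus livers were the lowest of all in both genes.

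Fkbp5 in liver was 878 and 855 in musculus, 2592 and 990 in domesticus, 1755 and 1263 in castaneus, 4232 and 4380 in musculus x domesticus, 964 and 855 in domesticus x musculus, 1015 and 1255 in musculus x castaneus, and 763 and 1332 in castaneus x musculus. Its 3 highest livers were those with the highest metallothioneins. Pck1 was also high in these 3 (19557 in domesticus male 1, 20995 and 19918 in musculus x domesticus), but musculus x castaneus male 2 reached 19770 as well. Tat differed little over the livers, and its 2 highest, 20212 and 18368, were the musculus x domesticus males, while domesticus male 1 was among the lowest at 13186. Tsc22d3 did not follow either: domesticus male 1 had the lowest liver signal of all 14, 3216.

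Other genes moved in the same livers. The clock output gene Dbp read 13786 in domesticus male 1 and 12569 and 9776 in the musculus x domesticus males, against 159 to 4042 in the other 11, and the core clock activator Arntl read 80, 176 and 176 there, its lowest values. The summed signal of the 11 clock genes listed was 29121, 26344 and 24008 in these livers and 6141 to 15166 in the others. Much of that gap is Dbp: the other 10 genes summed to 15335, 13775 and 14232 there, still the 3 highest, and to 5982 to 11124 in the rest. Among further glucocorticoid targets, of which 18 were tested in liver, Zbtb16, a zinc finger repressor, read 875, 796 and 1169 in them and 278 to 494 in the rest. It was picked after its values were seen and does not stand for the list. Exocrine pancreas markers summed to 402 in domesticus male 1, within the range of the other livers, and to 2145 and 3230 in the musculus x domesticus males, above all others but musculus x castaneus male 2. The part of the clock genes and of the pancreas transcripts in the liver values was not tested.

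**Figure D2:**
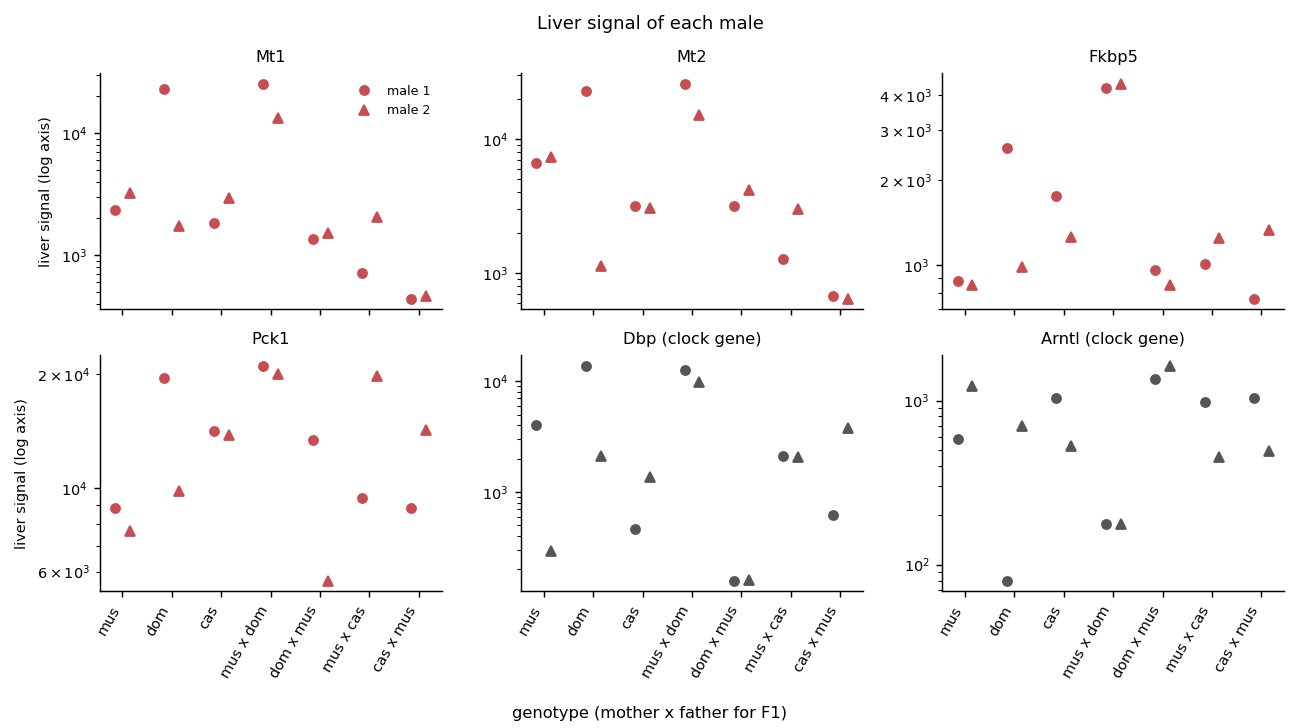
Liver signal of Mt1, Mt2, Fkbp5, Pck1 and the clock genes Dbp and Arntl in each of 14 males, on log axes; circles are male 1 and triangles male 2. Domesticus male 1 and both musculus x domesticus males hold the 3 highest values of Mt1, Mt2, Fkbp5 and Dbp and the 3 lowest of Arntl.

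Between the reciprocal F1 of the domesticus cross, Fkbp5 was higher in liver in males with a musculus mother. The means were 4306 ± 105 (SD, n = 2) in musculus x domesticus and 909.5 ± 77.1 (n = 2) in domesticus x musculus, with no overlap. The log2 difference was 2.21 ± 0.36 (SE), and limma's adjusted p was 0.048. This was 1 of the 15 liver probe sets tested, where 0.0888% of all probe sets tested were called (24 of 27022). The call is at the edge: over 21 alternative settings the difference stayed between 2.12 and 2.29, but the call was lost in 14, with adjusted p from 0.0046 to 0.349. It was lost without either male of either F1 (adjusted p of 0.349 and 0.146 without musculus x domesticus male 1 or 2, and 0.279 and 0.305 without domesticus x musculus male 1 or 2). The second Fkbp5 probe set gave 1.78 ± 0.50 (adjusted p = 0.206).

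The metallothionein and Pck1 differences of this pair were large but not called. Mt1 differed by 3.64 ± 0.84 (adjusted p = 0.127), Mt2 by 2.43 ± 0.91 (adjusted p = 0.389) and Pck1 by 1.23 ± 0.43 (adjusted p = 0.338) between musculus x domesticus and domesticus x musculus livers, with no overlap of the arrays. The other tested probe sets of Pck1 gave 1.98 ± 0.46 (adjusted p = 0.127) without overlap and 0.32 ± 0.40 (adjusted p = 0.885) with overlap. All genotypes share one estimate of the spread, which includes the domesticus pair. Leaving out domesticus male 1 or male 2 left the Mt1 and Mt2 differences as they were, since neither male enters them. It lowered their SE to 0.425 and 0.336, so whether they reach the threshold depends on the domesticus pair. Without 1 of the F1 males, which do enter, Mt1 ranged from 3.18 to 4.10 (SE 1.05 to 1.08). Mt2 then ranged from 2.05 to 2.81 (SE 1.15 to 1.16). Tsc22d3 (0.06 ± 0.42), Sgk1 (-0.14 ± 0.45) and Ddit4 (-0.09 ± 0.85) had liver differences smaller than their errors. Cdkn1a lay the other way, lower in musculus x domesticus by a log2 difference of -1.13 ± 0.57 without a call (adjusted p = 0.569). The clock list had a median difference of 1.43 over its 10 tested genes with 0 called, the other glucocorticoid targets 0.395 over 18 with 0 called, and all probe sets tested 0.038. No gene of these lists reached the adjusted threshold in limma, and 2599 of the 27022 probe sets had an unadjusted p under 0.05. As these F1 differ by 3 days in age, 53 against 50, age and cross direction cannot be told apart.

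In brain, the same 2 males were also the highest for Fkbp5. Brain signals were 850 and 902 in musculus, 1103 and 768 in domesticus, 1172 and 998 in castaneus, 1442 and 1815 in musculus x domesticus, 812 and 749 in domesticus x musculus, 970 and 1106 in musculus x castaneus, and 931 and 1060 in castaneus x musculus. The reciprocal log2 difference was 1.02 ± 0.19 in brain with an adjusted p of 0.203, so it was not called; the share of brain probe sets called was 0.0222%. Zbtb16 in brain read 1260 and 1351 in the musculus x domesticus males and 494 to 950 in the other 12. Other listed targets did not rank both of these males highest: males 1 and 2 ranked 3 and 2 for Nfkbia, 4 and 2 for Klf9, and 3 and 7 for Per1. Brain Mt2, Sgk1 and Tsc22d3 were also higher in these F1 than in their reciprocals, by 0.75 ± 0.25, 0.76 ± 0.35 and 0.52 ± 0.18 without a call (adjusted p of 1 for each). The other tested probe sets of Tsc22d3 gave 0.29 and 0.016, and Ddit4 gave -0.13 ± 0.35. In testis Fkbp5 read 1296 and 1308 in musculus x domesticus and 1161 and 907 in domesticus x musculus (difference 0.33 ± 0.17, adjusted p of 1).

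**Figure D3:**
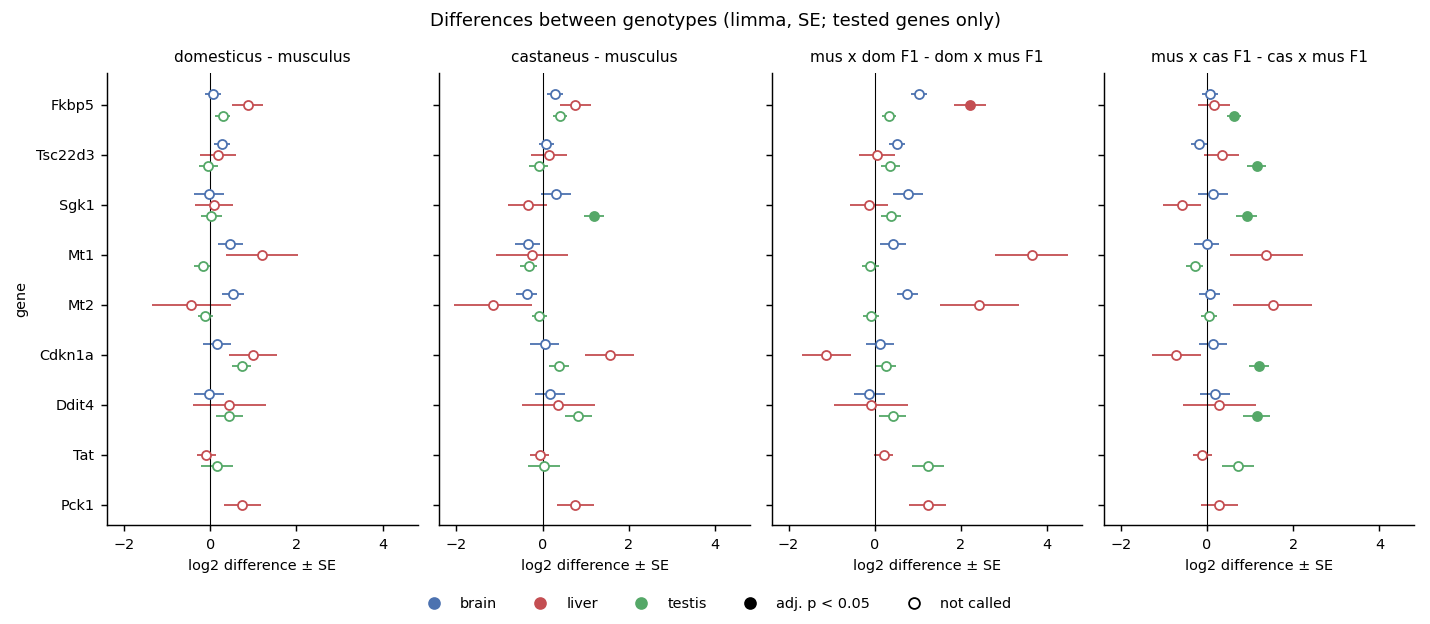
Log2 differences with SE for 4 comparisons between genotypes, by gene and tissue; filled points passed the adjusted threshold of 0.05 and open points did not. In the castaneus cross, 5 testis points of the musculus x castaneus minus castaneus x musculus comparison are filled, and Fkbp5 is the one filled liver point, at 2.21.

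The parental comparisons of domesticus with musculus called none of the member probe sets. Limma called 0 of 11 in brain, 0 of 15 in liver and 0 of 12 in testis, against 5.75%, 6.17% and 12.8% of all probe sets tested; 1, 2 and 1 of them had an unadjusted p under 0.05. In liver this result rests on which domesticus male is in the fit. Mt2 differed by -0.44 ± 0.91 (adjusted p = 0.881) with both, by -2.58 ± 0.41 (adjusted p = 0.00419) without male 1, and by 1.71 ± 0.41 (adjusted p = 0.0384) without male 2. Thus domesticus Mt2 was called lower or higher than musculus according to the male left out. Without male 2, Mt1 (3.06 ± 0.52, adjusted p = 0.00653) and Fkbp5 (1.55 ± 0.30, adjusted p = 0.0141) were called higher as well. Without male 1 they were not (-0.65 ± 0.52 and 0.19 ± 0.30). With one male left in a group, that male is assumed to vary like the other genotypes. In testis, Cdkn1a came nearest to a call, at 0.73 ± 0.23 (limma's adjusted p = 0.053). It read 377 and 561 in domesticus and 250 and 283 in musculus. With the filter at the 60th percentile it was called (adjusted p = 0.0471). Its second tested probe set gave 0.43 ± 0.54 (adjusted p = 0.713).

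Castaneus differed from musculus in 1 member probe set, testis Sgk1. Testis Sgk1 read 227 and 239 in musculus, 271 and 209 in domesticus, 695 and 471 in castaneus, 364 and 237 in musculus x domesticus, 230 and 211 in domesticus x musculus, 601 and 808 in musculus x castaneus, and 325 and 388 in castaneus x musculus. Both castaneus males lay above all musculus, domesticus and domesticus-cross males. The difference was 1.19 ± 0.24 from musculus (adjusted p = 0.00433) and 1.17 ± 0.24 from domesticus (adjusted p = 0.00565); these comparisons share the castaneus arrays. The called shares of all testis probe sets were 13.5% and 12.4%, and 1 of 12 member probe sets was called in each. Without castaneus male 1 the differences were 0.93 ± 0.28 (adjusted p = 0.0619) and 0.90 ± 0.28 (adjusted p = 0.0746), and without domesticus male 2 the latter was 1.00 ± 0.30 (adjusted p = 0.0634).

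Limma called 0 of 11 member probe sets in brain and 0 of 15 in liver for castaneus minus musculus, against 6.07% and 6.55% of all probe sets; 0 and 2 had an unadjusted p under 0.05. For castaneus minus domesticus it also called 0 in each, against 5.77% and 6.12%, with 2 and 0 at an unadjusted p under 0.05. Brain Mt2 came nearest. It read 3461 and 4876 in castaneus and 7972 and 7355 in domesticus, a log2 difference of -0.89 ± 0.25 with an adjusted p of 0.0618. Among the listed regulators and targets in brain, Klf9, a glucocorticoid-induced repressor of the Krüppel-like family, was higher in castaneus than musculus (1.26 ± 0.31, adjusted p = 0.0351) and was the 1 of 19 other glucocorticoid targets called. Hsd11b1, which regenerates active glucocorticoid inside cells, was lower in castaneus (-0.94 ± 0.17, adjusted p = 0.00679), 1 of 7 tested genes of receptor signalling.

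The testis of the musculus x castaneus F1 held the largest group of calls. Against the reciprocal castaneus x musculus F1, 7 of 12 member probe sets were higher and 0 lower, in a comparison where 28.4% of all probe sets were called. They covered 5 genes: Tsc22d3, Sgk1, Fkbp5, Cdkn1a and Ddit4. Tsc22d3 read 874 and 907 in musculus x castaneus against 388 and 379 in castaneus x musculus, and 312 to 659 in the 10 testes of other genotypes. Its difference was 1.15 ± 0.22 (adjusted p = 0.00255). Cdkn1a read 516 and 787 against 236 and 285, a difference of 1.20 ± 0.23 (adjusted p = 0.00216). The arrays of these probe sets did not overlap between the reciprocal F1, and both calls held in all 21 alternative settings. The second called probe set of each gene was less stable, losing its call in 5 settings for Tsc22d3 (0.76 ± 0.23, adjusted p = 0.0266) and in 4 for Cdkn1a (1.89 ± 0.54, adjusted p = 0.021). A further probe set of Tsc22d3 overlapped and was not called (0.47 ± 0.26, adjusted p = 0.189).

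Ddit4, Sgk1 and Fkbp5 followed with less certain calls. Ddit4 read 1447 and 2394 in musculus x castaneus testes and 771 and 873 in castaneus x musculus (1.15 ± 0.31, adjusted p = 0.0158). Sgk1 read 601 and 808 against 325 and 388 (0.92 ± 0.24, adjusted p = 0.0133). Fkbp5 read 1573 and 1532 against 841 and 1187 (0.62 ± 0.17, adjusted p = 0.0158), but its second tested probe set was not called (0.44 ± 0.21, adjusted p = 0.133). All 3 lost their call without castaneus x musculus male 1 (adjusted p of 0.101, 0.101 and 0.186) and without musculus x castaneus male 2 (adjusted p of 0.147, 0.117 and 0.0652), and Fkbp5 also without musculus x castaneus male 1 (adjusted p = 0.0678). Leaving out 1 male left 2 to 6 of the 7 member calls.

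Mt1 and Mt2 were not called. Testis Mt1 read 9714 and 10903 in musculus x castaneus and 13948 and 11356 in castaneus x musculus (-0.29 ± 0.20, adjusted p = 0.281), and Mt2 7944 and 9333 against 8934 and 7781 (0.05 ± 0.18, adjusted p = 0.867). Of the other genes that respond to metals, 2 of 10 were higher and 1 lower, a share near the 28.4% called over all probe sets. The zinc exporter gene Slc30a2 (1.04 ± 0.16, adjusted p = 0.000626) and Selenbp1 (0.75 ± 0.23, adjusted p = 0.0285) rose, and Mtf1, which encodes the metal-sensing activator of metallothionein genes, fell (-0.81 ± 0.15, adjusted p = 0.00161).

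Other lists were read against the same 28.4%. Of 18 other glucocorticoid targets 4 were higher and 0 lower, which is below that share, with a median difference of 0.52: Rgs2, a regulator of G protein signalling (1.22 ± 0.18, adjusted p = 0.000405), Nfkbia, the NF-kB inhibitor (0.97 ± 0.18, adjusted p = 0.00218), Mertk (0.93 ± 0.20, adjusted p = 0.00513) and Errfi1 (0.72 ± 0.23, adjusted p = 0.0326). Of 10 p53 targets 6 were higher and 1 lower, with a median of 0.699. Perp, a p53 target of epithelial adhesion, was higher by 1.48 ± 0.32 (adjusted p = 0.00484), and Mdm2, the ubiquitin ligase that degrades p53, was lower (-0.80 ± 0.16, adjusted p = 0.00268). The median over all probe sets tested was 0.237, so much of the array read higher in the musculus x castaneus testes. After quantile normalization that median was 0.033, and the share of calls that were higher fell from 62.9% to 44.8%. The brightest probe sets of the 5 genes kept positive differences: 1.14 for Ddit4, 0.95 for Tsc22d3, 0.92 for Cdkn1a, 0.66 for Sgk1 (not called, adjusted p = 0.0643) and 0.59 for Fkbp5. No other tested probe set of these genes was then called, and the second of Fkbp5 gave 0.17 (adjusted p = 0.622).

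Cell markers differed between these testes as well. The summed signal of 4 Sertoli cell markers was 4122 and 5516 in the musculus x castaneus males and 1657 to 2727 in the 12 others, with Amh at 46 and 52, and with higher signals of Rhox5 (2191 and 3419, against 752 and 1006 in castaneus x musculus) and Wt1 (1549 and 1738, against 615 and 808). The 2 measured Leydig cell markers summed to 9506 and 9568, against 2353 to 7824 in the others. The summed signal of 5 spermatid markers (Prm1, Prm2, Tnp1, Tnp2 and Odf1) was 74546 and 66032, against 73989 to 124652 in the other 12. The part of cell composition in the testis differences was not tested.

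Few F1 means were called different from the parental mean. For the domesticus cross, limma called 0 of 11 in brain, 0 of 15 in liver and 0 of 12 in testis, against 0.137%, 0.178% and 0.414% of all probe sets; 1, 5 and 0 had an unadjusted p under 0.05. In liver 13 of the 15 lay above the midparent, with a median of 0.51 against -0.009 over all probe sets. Without domesticus male 1, liver Mt2 was called above the midparent (1.58 ± 0.27, adjusted p = 0.0467, against 0.51 ± 0.65 with both males). In the castaneus cross, 2 of 12 testis probe sets were called, both of Tsc22d3 and both higher in the F1, where 17.4% of all probe sets were called; 7 of the 12 had an unadjusted p under 0.05, and their median was 0.32 against 0.027 over all probe sets. Tsc22d3 exceeded the midparent by 0.53 ± 0.16 (adjusted p = 0.0338), and a further probe set of the gene by 0.57 (adjusted p = 0.0489). The F1 mean hides a split, as the musculus x castaneus testes (874 and 907) lay above both parents (402 and 417 in musculus, 468 and 312 in castaneus) and the castaneus x musculus testes (388 and 379) did not. The call of the second of these probe sets was lost in 15 of 22 alternative settings (adjusted p up to 0.172). The call of the brightest was lost without any 1 of the 4 castaneus-cross F1 males, without either musculus male and without castaneus male 2 (adjusted p from 0.0642 to 0.14).

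Liver metallothioneins of the castaneus cross were low in the F1 without reaching the threshold. Mt2 lay below the midparent by -1.99 ± 0.65 on the log2 scale (adjusted p = 0.429) and Mt1 by -1.72 ± 0.60 (adjusted p = 0.473). The 4 F1 livers of Mt2, 647 to 2992, were all below the 4 parental ones, 3051 to 7285. Leaving out domesticus male 1 or male 2, which do not enter these differences, left their size unchanged. It lowered their SE to 0.238 for Mt2 and 0.30 for Mt1, so whether they reach the threshold depends on the domesticus pair. Without musculus x castaneus male 1, which does enter, Mt2 was -1.69 ± 0.72 and Mt1 -1.35 ± 0.64. Without male 2 of that F1 they were -2.29 ± 0.72 and -2.09 ± 0.64. Limma called 0 of 11 members in brain and 0 of 15 in liver here, against 0.137% and 0.241% of all probe sets, with 1 and 3 at an unadjusted p under 0.05. Between the reciprocal F1 of the castaneus cross it called 0 in brain and 0 in liver, against 0.0111% and 0.037%, with 0 at an unadjusted p under 0.05 in either tissue. For the reciprocal F1 of the domesticus cross it called 0 in brain (4 at an unadjusted p under 0.05) and 0 in testis (1 at that level), against 0.0222% and 0.204%.

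Genotype profiles of 7 of the 10 probe sets tested in every tissue were called dependent on the tissue, in an F test that called 37.9% of all probe sets. They belong to Mt1 (adjusted p = 0.000541), Fkbp5 (adjusted p = 0.000992 and 0.00517 for its 2 probe sets), Sgk1 (adjusted p = 0.00248), Mt2 (adjusted p = 0.00374), Tsc22d3 (adjusted p = 0.0225 for its second probe set, 0.0589 and so not called for the brightest) and Cdkn1a (adjusted p = 0.0271). Ddit4 (adjusted p = 0.498) did not reach the threshold. For Mt1 and Mt2, no comparison between genotypes was called within any of the 3 tissues. The F test assumes the same residual spread in each tissue. The SD within genotypes was 1.12 in liver, 0.363 in brain and 0.229 in testis for Mt1. For Mt2 it was 1.22, 0.299 and 0.202. The part of this unequal spread in the F test calls was not tested. For Sgk1 the calls between genotypes lay in testis, and for Fkbp5 in liver and, in the castaneus cross, in testis. Without the male as a block the number of such calls was 4.

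Tissues of one male could be compared because the labels number the males across tissues. The deviation of each male from the mean of its genotype was set against that in another tissue, over 7 independent pairs of males, with an exact permutation test that swaps the males of a genotype (smallest possible p 0.0156). None of 27 combinations of gene and tissue pair passed the Benjamini-Hochberg adjustment. Those with an exact p of 0.0312 for both r and rho were Ddit4 in brain and testis (Pearson r = 0.89, Spearman rho = 0.98, exact p = 0.0312 for both; adjusted p = 0.281 and 0.211; same direction in 6 of 7 pairs), Fkbp5 in brain and liver (r = 0.86, rho = 0.88, exact p = 0.0312 for both, same adjusted p; 6 of 7 pairs) and Mt1 in brain and testis (r = 0.78, rho = 0.81, exact p = 0.0312 for both, same adjusted p; 6 of 7 pairs). Without the 2 pairs with the largest difference in the first tissue these r were 0.95, 0.88 and 0.98. Sgk1 in brain and testis reached that p for rho alone (r = 0.56, exact p = 0.0625; rho = 0.58, exact p = 0.0312), and Ddit4 in brain and liver had r = 0.88 (exact p = 0.219), which was 0.13 without the 2 largest pairs. The median r of all probe sets tested in both tissues was 0.365 for brain and testis and 0.358 for brain and liver, so a positive r was common on the array.

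Liver Mt1 had low correlations with the other tissues. Its r was 0.23 with brain (rho = 0.41, exact p = 0.578 and 0.297) and 0.02 with testis (rho = 0.29, exact p = 0.984 and 0.297), with adjusted p of 0.844 and 0.573, and 0.984 and 0.573. Among all probe sets tested in both tissues these r lay at the 39.3th percentile with brain and the 25.2th with testis. The low value with testis rests partly on the pairs with the largest liver difference: without the 2 largest, r was 0.55. Between brain and liver, r was -0.02 without the 2 pairs largest in brain, which left the domesticus pair in. The direction was the same in 5 of 7 pairs with testis and in 4 with brain. Domesticus male 1, with 13.07 times the liver Mt1 of male 2 on the offset scale, had Mt1 signals of 9477 in brain and 12448 in testis, against 10385 and 14323 in male 2. Thus the male with far higher liver Mt1 had slightly lower Mt1 in both other tissues.

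Within a tissue, none of 108 pairs of members passed the adjustment. Mt1 and Mt2 deviated together most closely: r was 0.97 in liver (rho = 0.89, exact p = 0.0625 for both), 0.92 in testis (rho = 0.96, exact p = 0.0312 for both), with adjusted p of 0.603 and 0.562 in either tissue. Without the 2 largest pairs r was 0.72 in liver and 0.86 in testis. Mt1 and Mt2 are close paralogs, and cross-hybridisation between their probe sets was not tested. Mt1 and Ddit4 in brain reached the smallest exact p, 0.0156, with r = 0.76, rho = 0.73 and 7 of 7 pairs in the same direction, adjusted p = 0.603 and 0.562; without the 2 largest pairs its r was 0.56.

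The musculus x castaneus males differed from each other in most members in brain and liver. Of the genes that passed the filter, male 2 was higher in 7 of 7 in brain, 9 of 9 in liver and 6 of 8 in testis, while 51.2%, 38.5% and 42.2% of all probe sets tested were higher in it. In the other genotypes male 2 was higher in 3 to 5 of 7 in brain, 3 to 6 of 9 in liver and 4 to 8 of 8 in testis, so the testis count is not unusual. Ddit4 read 1333 in male 1 and 3299 in male 2 in brain, 405 and 5367 in liver, and 1447 and 2394 in testis. Male 2 held the highest Ddit4 of all 14 males in each tissue. Brain Sgk1 was 2266 and 5078, and brain Mt1 4718 and 9119, in males 1 and 2. In liver, Tsc22d3 was 3718 and 10080, the latter the highest of 14.

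The liver of this male is the one with the pancreas markers, Cel at 5281, Cpa1 at 7518 and Ctrb1 at 14030, while its brain and testis had 470 and 610 in summed pancreas signal, within the range of the other males. In the same liver Igfbp1, an insulin-repressed binding protein, read 24089 against 478 in male 1, and Cebpb 17909 against 4845. The part of the pancreas transcripts in the liver values was not tested. Ddit4 in liver exceeded the midparent of the castaneus cross by 1.35 ± 0.60 (adjusted p = 0.62) with both males, by 2.25 ± 0.37 (adjusted p = 0.0256) without male 1 and by 0.44 ± 0.37 (adjusted p = 0.929) without male 2.

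**Figure D4:**
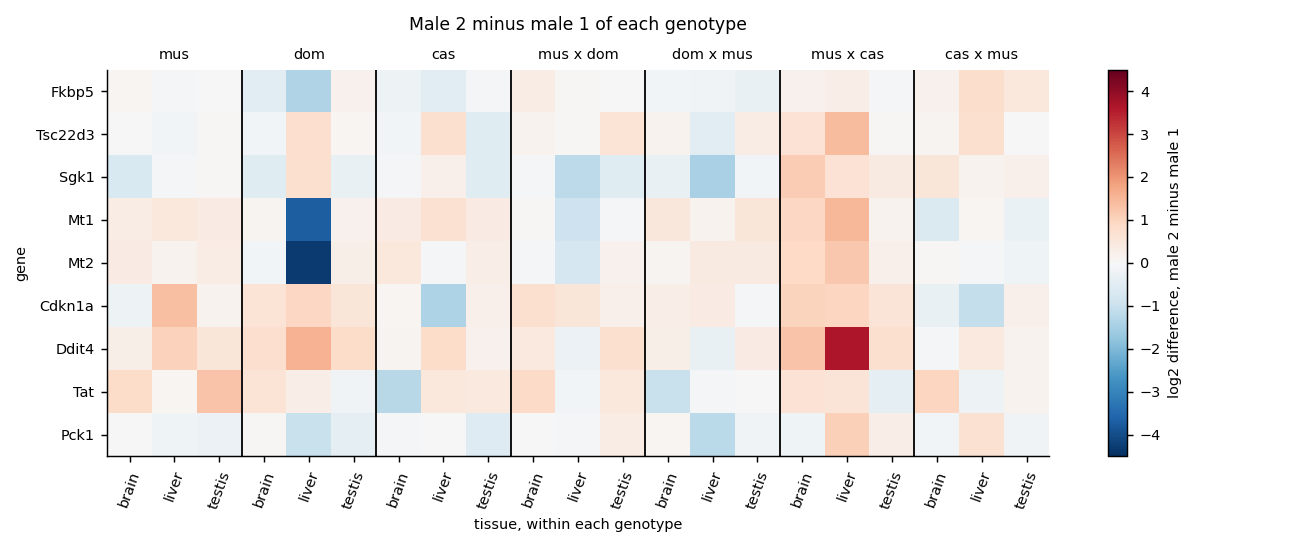
Log2 difference of male 2 minus male 1 for the 9 genes, in each genotype and tissue; red is higher in male 2, blue in male 1. Domesticus liver Mt1 and Mt2 are the darkest blue cells (male 1 higher by 13.07-fold and 19.65-fold), and musculus x castaneus liver Ddit4 the darkest red (12.38-fold), with red cells in brain and testis of the same males.

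The genes with the most similar profile were sought for each member in its brightest tissue, by Pearson r over the 14 arrays, of which each pair shares a genotype; this is a description with no test. Fkbp5 in liver was most like Gpcpd1 (0.911), St3gal5 (0.907) and Phf8 (0.905), among 22676 probe sets with a median r of 0.048. Tsc22d3 in liver was most like Pcbp4 (0.896), its fellow member Ddit4 (0.878) and the heat shock gene Hspa1b (0.877). Sgk1 in brain was most like Map3k6 (0.839) and Nfkbia (0.833), and Ddit4 in brain most like Erf (0.918) and the mitochondrial chaperonin gene Hspe1 (0.911). Mt1 in testis was most like Cox8c (0.955) and Rangrf (0.953), Mt2 like Chmp1a (0.897), Cdkn1a in brain like Polr1a (0.897), Tat in liver like Hspb8 (0.801) and Pck1 in liver like Esyt3 (0.895).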

How the data were processed

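Total RNA of brain, liver and testis was hybridised to 1-colour Affymetrix arrays. The deposited values are linear intensity per probe set made by MAS5, per the submitters' processing notes; the version of MAS5 is not given in the sources used here. Gene symbols come from the platform annotation, which can be old. The 9 members and the lists were chosen with earlier results of these data known.

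An offset of 31, the 20th percentile of the whole table, was added to each signal before taking log2. In each tissue the 40% of probe sets with the lowest mean were left out and the rest tested (27022 of 45037; mean signals from 100.1, 82.4 and 84.3 in brain, liver and testis), 20178 in all tissues. limma 3.58.1 in R 4.3.3 fitted genotype means over the 14 arrays of a tissue (7 residual degrees of freedom), with eBayes and an intensity trend and Benjamini-Hochberg adjustment within a contrast; all p are two-sided. Tissues were compared over 42 arrays with the male as a random block; the labels give the same genotype and male number in each tissue, and the correlation within males was 0.293. The fit was tested on simulated data. The brightest probe set with 1 symbol stands for a gene. Named genes are the members, listed genes past the threshold, the most similar profiles, and examples chosen after their values were seen (Dbp, Arntl, Zbtb16, Igfbp1, Cebpb, the pancreas, Sertoli cell and Leydig cell markers). Alternatives were offsets of 10 and 100, no filter or one at the 60th percentile, quantile normalization, no trend, other blocks, a linear midparent and each male left out; the clock sum without Dbp and the pair counts over tested genes alone were chosen after seeing the data. Probe mismatches between subspecies were not tested. No sequence of the probes or genes was used here.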

Additional observations from a re-analysis of the deposited data

Results flagged for a closer look

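The genotype differences of 7 member probe sets were called dependent on the tissue in limma's F test over the interaction of tissue and genotype. That test assumes the same residual spread in each tissue, which Mt1 and Mt2 did not have. The adjusted p was 0.000541 for Mt1, 0.000992 for Fkbp5, 0.00248 for Sgk1, 0.00374 for Mt2, 0.00517 for the second probe set of Fkbp5, 0.0225 for the second probe set of Tsc22d3 and 0.0271 for Cdkn1a. The highest and lowest adjusted p over the alternative settings were 0.0125 and 2.84e-08 for Mt1, 0.0417 and 3.65e-09 for Mt2, 0.0351 and 0.000937 for Sgk1 and 0.0226 and 6.94e-06 for the brightest Fkbp5 probe set. The calls of Cdkn1a, Tsc22d3 and the second Fkbp5 probe set were each lost in some settings, 8, 3 and 2 of them.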

How the results depend on the processing

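Of 75 results followed (named gene and difference), 46 were called and 29 of these kept their call and direction in every setting run. These counts pool tissue comparisons, dependence on tissue and genotype comparisons. Among the called genotype comparisons, only 2 kept their call throughout. They were the testis reciprocal differences of the castaneus cross for the brightest Tsc22d3 and Cdkn1a probe sets. Counts of called member probe sets moved as follows. For F1 minus midparent, 2 calls became 1 with an offset of 10, with quantile normalization, without the trend or with a linear midparent, 0 without the filter and 4 with the replicate block, and 0 to 5 with 1 male left out. For castaneus minus domesticus, 1 call became 2 with quantile normalization, 3 with the replicate block and 0 to 3 with 1 male left out. For castaneus minus musculus, 1 became 2 without the trend or with the replicate block and 0 to 2 with 1 male left out. For domesticus minus musculus, 0 became 1 with the filter at the 60th percentile or with the replicate block and 0 to 4 with 1 male left out. For the reciprocal differences, 8 became 5 with quantile normalization and 2 to 10 with 1 male left out. Tissue comparisons gave 27 calls, and 41 without the filter, which tests more probe sets. Dependence on tissue gave 7 calls, and 4 with no replicate block. In the genotype comparisons the males share only a number, so the replicate block has no basis in the design there. Liver Mt2, domesticus minus musculus, was -0.44 with all males and 1.71 without domesticus male 2, a reversal; its lowest value was -2.58, without male 1. The comparisons within males gave 0 adjusted calls in every setting, also with each pair of males left out. With 2 males a genotype, differences of the size of the liver spread of Mt1, Mt2 and Ddit4 are not resolved.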
